A study of Mus musculus with 10 samples.

Results

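The 8 genes described here encode transcription factors that set or maintain the identity of the intestinal epithelium, namely the nuclear receptors Hnf4a, Hnf4g and Nr5a2, the homeobox factors Cdx1 and Cdx2 and the zinc finger factors Gata4, Gata5 and Gata6. They were taken by name from the 54838 genes listed in each library, and all 8 were among the 14719 genes whose counts were high enough to be tested. The data are polyadenylated RNA of crypts from the jejunum, with 5 WT animals and 5 Arid3a cKO animals as separate libraries, collected 1 month after tamoxifen had been injected on 3 days into animals of both genotypes. The cKO animals carried homozygous floxed Arid3a alleles (Arid3a fl/fl) and a tamoxifen-inducible Cre recombinase under the Villin promoter (VillinCre-ERT2+/-), so that Arid3a, which encodes a DNA-binding protein with preference for A+T-rich sequence, is deleted in intestinal epithelial cells and not in the stromal and immune cells that a crypt preparation can hold. Whether the WT animals carried the Cre or floxed alleles, and the age of the animals at injection, were not given in the sources used here. The comparison asks whether the identity factors themselves changed when Arid3a was deleted, and whether the related factors of a family changed together.

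HNF4A and HNF4G are closely related nuclear receptors that bind the same DNA motif and share much of the control of enterocyte genes, such as those for brush border enzymes and lipid transport. CDX2 and its relative CDX1 keep the posterior, intestinal identity of the epithelium, and GATA4 and GATA6 act in the proximal small intestine, where GATA4 keeps jejunal genes on and ileal genes off. NR5A2, also called LRH-1, supports crypt cell renewal and takes part in bile acid and steroid metabolism.

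Values are given on 3 scales. CPM are counts scaled to a common total, here the authors' expected counts after normalization between libraries by the TMM method of edgeR, TPM are the values the authors deposited, which also divide by transcript length and so allow levels of different genes to be compared, and log2 fold changes are those of cKO over WT from edgeR's quasi-likelihood test on the rounded expected counts. Adjusted p-values are from that test with Benjamini-Hochberg adjustment over all 14719 genes unless another test is named, and a gene is called changed where the adjusted p is below 0.05. Library totals were 27050455 to 28152743 expected counts in WT and 28314069 to 31053622 in cKO, so every cKO total was above every WT total. Arid3a itself was at 0.662 ± 0.164 TPM (SD, n = 5) in WT and 0.174 ± 0.0750 TPM in cKO crypts, with a log2 fold change of -1.84 (standard error, SE, 0.32, adjusted p = 0.00204, edgeR). The identifiers of WT and cKO animals had no stem in common, so litter or colony and genotype cannot be told apart, and nothing in the labels says whether animals were prepared together.

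Libraries of the same genotype also differed from each other. Gkn1, a gene of gastric surface cells, was at 215, 216 and 86.8 TPM in WT replicates 3, 4 and 5 and at 31.1 TPM in cKO replicate 4, and below 1 TPM in the other 6 libraries. The pan-epithelial markers Epcam, Cdh1, Krt8, Krt18, Krt19 and Cldn7 summed to between 4654 and 5166 TPM in WT and between 4494 and 5291 TPM in cKO crypts, and 0 of these 6 genes passed the threshold with edgeR, while 2 had an unadjusted p below 0.05 and DESeq2 called 1. The colonic genes Car1 and Hoxb13 were listed at 0 in every library. Results that rest on the 4 libraries with Gkn1 above 1 TPM are therefore also given without them, which leaves 2 WT and 4 cKO libraries. Scaling by total counts alone, without TMM factors, also changed the split of calls, from 2298 higher and 1869 lower to 1544 higher and 4030 lower. In the comparison without the 4 libraries, chosen after the values were seen, 423 of 15229 genes (2.78%) were called, against 4167 of 14719 (28.3%) in the full one.

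Paralogs can exchange reads where their transcripts are identical, and the pairs whose balance is compared here were therefore set side by side. The longest run of identical bases between any Hnf4a and any Hnf4g transcript of GENCODE for GRCm38 was 17 bases, in exon 6 of 10 of both genes. With 20 bases on each side of it the run lies at chr2:163562529-163562585 for Hnf4a and chr3:3648044-3648100 for Hnf4g, both on the plus strand and within the coding sequence. The sequences below run 5′ to 3′ and capitals mark the identical run.
Hnf4a: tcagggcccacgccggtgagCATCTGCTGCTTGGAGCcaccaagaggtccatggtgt
Hnf4g: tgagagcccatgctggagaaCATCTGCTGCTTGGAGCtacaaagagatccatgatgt

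Of the 5 pairs compared, all within a family, the longest shared run was 26 bases, between Gata4 and Gata5, at the junction of exons 4 and 5 of 7 in Gata4 (chr14:63203377-63203702, minus strand, with the intron between) and of exons 3 and 4 of 6 in Gata5 (chr2:180327826-180328350, minus strand, with the intron between). Both lie within the coding sequence, and capitals again mark the identical bases.
Gata4: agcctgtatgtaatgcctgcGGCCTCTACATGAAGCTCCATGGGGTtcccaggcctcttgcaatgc
Gata5: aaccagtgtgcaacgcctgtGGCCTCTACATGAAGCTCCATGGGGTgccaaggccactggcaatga

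The other shared runs were 16 bases between Cdx1 and Cdx2, 18 bases between Gata4 and Gata6 and 15 bases between Gata5 and Gata6. The expected counts of Hnf4a, Hnf4g, Nr5a2, Cdx1, Cdx2 and Gata4 were whole numbers in all 10 libraries, those of Gata5 in none, and those of Gata6 in all but WT replicate 2.

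Of the 8 factors, 2 rose in cKO crypts and 0 fell, where 28.3% of all tested genes were called, 15.6% as higher and 12.7% as lower. Hnf4g rose 2.07-fold and Gata6 rose 1.24-fold. At an unadjusted p below 0.05, which 40.5% of all tested genes had, edgeR gave 2 factors higher and 1, Hnf4a, lower, and DESeq2 called the same 2 as higher and Hnf4a as lower. The median log2 fold change of the 8 factors was 0.03, beside -0.03 over all tested genes. With the 4 libraries with Gkn1 left out, edgeR called 0 of the 8, and 2 had an unadjusted p below 0.05, beside 22.1% of all genes in that comparison.

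**Figure D1:**
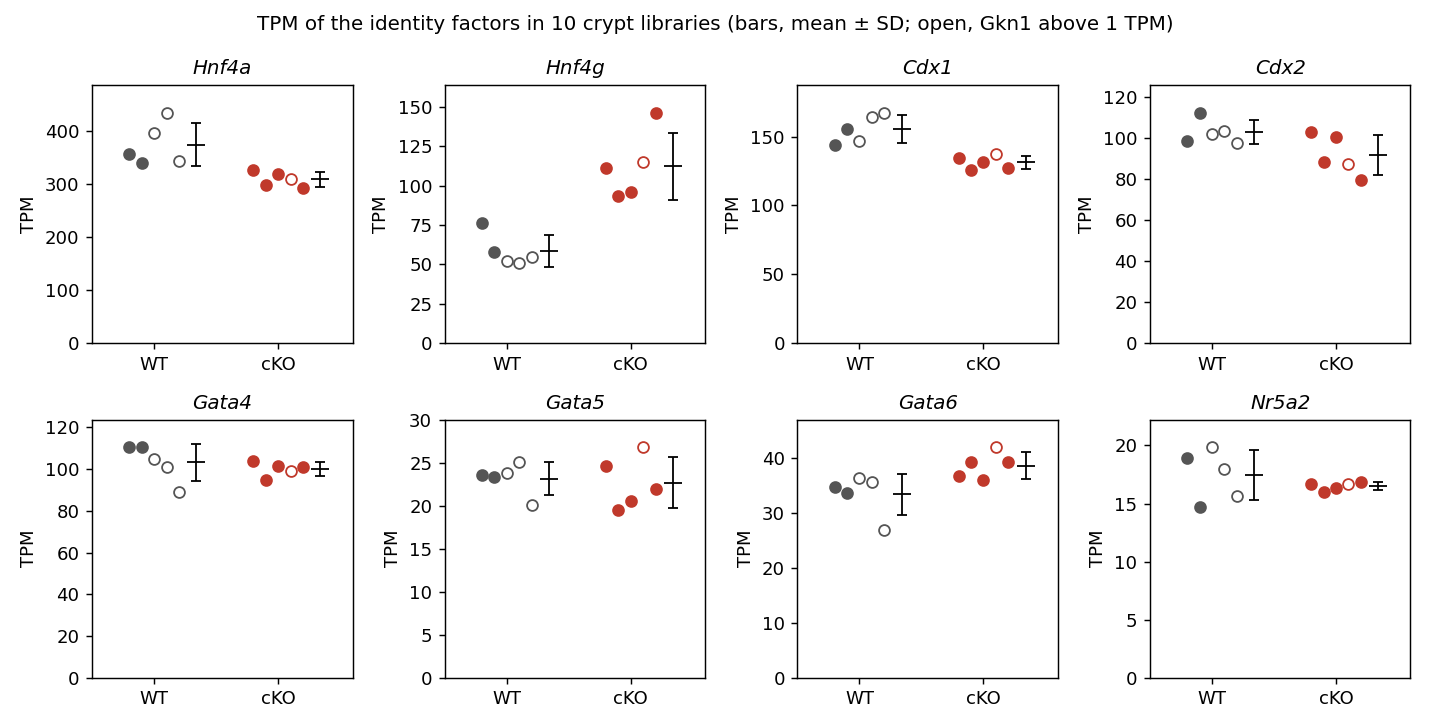
TPM of the 8 factors in each library, 1 panel per gene with its own axis from 0, WT in grey and cKO in red, with the mean and SD of 5 libraries beside the points. Open points are the 4 libraries with Gkn1 above 1 TPM. Hnf4g was at 93.5 TPM or more in every cKO library and at 76.0 TPM or less in every WT library, whereas Gata4, Gata5, Gata6, Cdx2 and Nr5a2 overlapped.

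Hnf4g, on chromosome 3 of GRCm38 from 3508030 to 3658052 on the plus strand, encodes the HNF4 receptor that is found in the intestine but is scarce in the liver. It was at 76.0, 57.6, 52.3, 51.1 and 54.4 TPM in WT replicates 1 to 5 and at 111, 93.5, 95.7, 115 and 147 TPM in cKO replicates 1 to 5. The highest WT value was that of replicate 1 and the highest cKO value that of replicate 5, and the groups did not overlap, as was the case, higher in cKO, for 6.43% of all tested genes in TPM. After TMM normalization WT crypts averaged 99.3 ± 17.2 CPM and cKO crypts 206 ± 40.4 CPM (SD, n = 5), from 2409 to 3604 expected counts per WT library and 4820 to 7282 per cKO library. The log2 fold change was 1.05 (SE 0.14, adjusted p = 9.3e-04, edgeR), and 3.61% of all tested genes had a larger positive change. Hnf4g stayed past the threshold in each fit that left out 1 animal, with log2 fold changes from 0.92 to 1.15. The WT libraries with Gkn1 were the 3 lowest in Hnf4g. In the comparison that lacks the 4 libraries with Gkn1 its change was 0.87 (SE 0.20) and no longer passed (adjusted p = 0.064, edgeR), while the remaining values still did not overlap between the groups. Over all 10 libraries the summed level of 7 enterocyte markers was 504 to 1850 TPM in WT and 2095 to 3528 TPM in cKO crypts, and its part in the change of Hnf4g was not tested.

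Hnf4a, on chromosome 2 from 163506808 to 163572910 on the plus strand, encodes the receptor of the pair that is also abundant in the liver, and it was the most highly expressed of the 8 factors. It was at 356, 340, 396, 435 and 343 TPM in the WT replicates and at 327, 298, 319, 310 and 291 TPM in the cKO replicates. Every cKO value in TPM was below every WT value, as for 12.5% of all tested genes, but in CPM the groups overlapped, the mean being 1150 ± 68.2 CPM for WT and 1039 ± 44.2 CPM for cKO crypts (SD, n = 5). The 2 highest WT values in either unit were those of replicates 3 and 4. Its log2 fold change was -0.15 (SE 0.07, adjusted p = 0.12, edgeR). Whether this difference passed depended on the fit: it passed as lower in DESeq2 (log2 fold change -0.14, adjusted p = 0.028), with library size only (-0.28, adjusted p = 0.0079) and in limma on log2(TPM + 1) (-0.27, adjusted p = 0.021), fits that called 15.4, 27.4 and 18.6% of all genes lower. The median over all tested genes was -0.03 with TMM, -0.16 with library size only and -0.10 in limma on log2(TPM + 1). Relative to that median Hnf4a was at -0.12 with TMM, -0.12 with library size only and -0.17 in limma on log2(TPM + 1). Without the 4 libraries with Gkn1 the log2 fold change was -0.04 (adjusted p = 0.82, edgeR).

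The balance of the HNF4 receptors differed between the genotypes. Hnf4g made up 17.6, 14.5, 11.7, 10.5 and 13.7% of the summed TPM of both genes in the WT replicates and 25.4, 23.9, 23.1, 27.03 and 33.5% in the cKO replicates. The smallest cKO share was above the largest WT share. The TPM ratio of Hnf4g to Hnf4a was on average 0.158 in WT and 0.366 in cKO crypts, a difference of 1.21 on the log2 scale (-2.69 ± 0.33 in WT and -1.48 ± 0.29 in cKO, SD, n = 5, two-sided exact permutation test over all assignments of libraries to genotypes, p = 0.00794, the smallest it can give, adjusted p = 0.016 over the 4 ratios tested). In TPM every cKO library was above every WT library for Hnf4g and below it for Hnf4a. The p-value of this ratio was fixed by those separations and adds nothing to them. The log2 difference of the ratio was 0.91 when the 4 libraries with Gkn1 were left out, in a comparison of 2 against 4 libraries that cannot pass the threshold (exact permutation test, adjusted p = 0.13). The summed TPM of both genes overlapped, with 398 to 486 in WT and 391 to 438 in cKO crypts. Its means were 432 ± 37.1 TPM in WT and 421 ± 19.6 TPM in cKO (SD, n = 5).

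**Figure D2:**
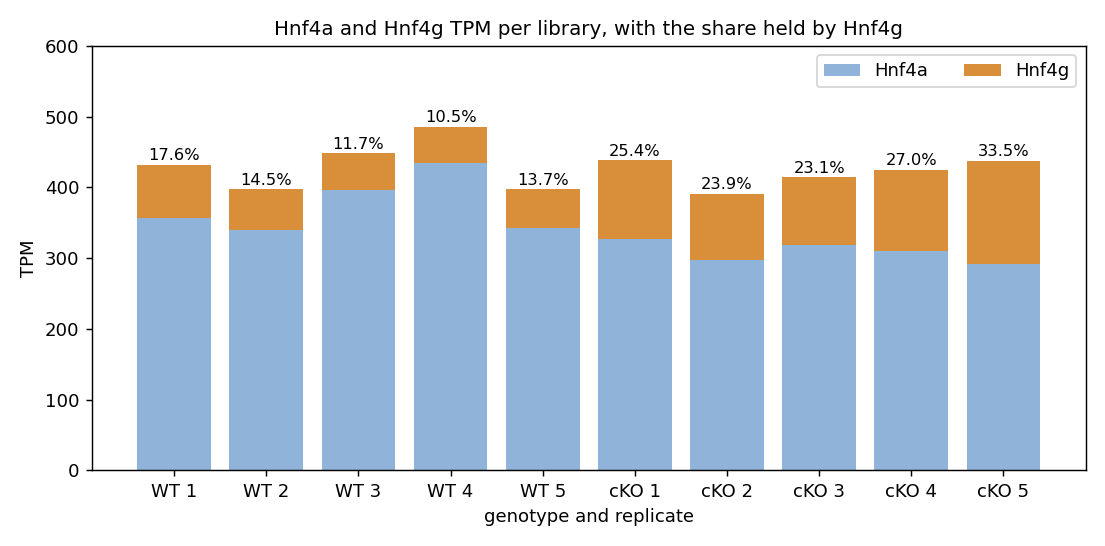
Stacked bars give the TPM of Hnf4a (blue) and Hnf4g (orange) in each of the 10 libraries, with the percentage held by Hnf4g above each bar. The bars have similar heights, between 391 and 486 TPM, and the orange part is larger in all 5 cKO libraries, at 23.1 to 33.5% against 10.5 to 17.6% in WT.

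The annotation lists 2 Hnf4g transcripts, of 2224 bases with the upstream start and of 2327 bases with the downstream start. Since RSEM lists for each gene a length weighted by the abundance of its transcripts, the share of the longer one follows from it. It was 62.6 to 78.4% in WT (70.8 ± 6.62%, SD, n = 5) and 79.9 to 85.9% in cKO crypts (82.7 ± 2.56%). The groups did not overlap, as was the case for 3.79% of the 11854 genes whose length varied. WT replicates 3, 4 and 5, which held Gkn1, were the lowest, at 65.2, 62.6 and 73.0%. Without the 4 libraries with Gkn1, WT replicates 1 and 2 were at 74.6 and 78.4%. The cKO libraries then left were at 80.4, 84.4, 79.9 and 85.9%, so the groups were apart by little. The change in weighted length itself was 0.008 on the log2 scale and did not pass the threshold (limma, adjusted p = 0.59). The 2 transcripts differ little in length, and limma takes its error partly from other genes. This test therefore does not decide whether the share changed. Of the 5 factors with more than 1 length, limma called 0, where 29 of 11854 genes (0.245%) were called, and 2 had an unadjusted p below 0.05, beside 13.3% of those genes. These were Nr5a2, whose weighted length was 3937 ± 177 bases in WT and 4257 ± 139 bases in cKO (adjusted p = 0.21), and Hnf4a, at 4082 ± 44.6 and 4158 ± 24.7 bases (adjusted p = 0.24).

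An antisense RNA, Hnf4aos, is annotated on the minus strand of the Hnf4a locus, from 163493807 to 163541720 on chromosome 2, and its start lies 5467 bases upstream of the first base of the long Hnf4a transcripts. It was counted 4, 18, 7, 3 and 3 times in the WT replicates and 23, 7, 19, 23 and 25 times in the cKO replicates. All cKO libraries but replicate 2 were above all WT libraries. Its change on the log2 scale was 1.49 (SE 0.50, adjusted p = 0.043, edgeR), and it no longer passed without the 4 libraries with Gkn1 (0.78, adjusted p = 0.53) or without WT replicates 3 and 4 (1.22, adjusted p = 0.19). Leaving out 1 animal at a time gave values from 1.29 to 2.19, with adjusted p up to 0.10, and Hnf4aos stayed past the threshold only where that animal was WT replicate 2 or cKO replicate 2. The strand setting of the counting is not stated, so reads of Hnf4aos and of an overlapping Hnf4a transcript cannot be told apart.

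Cdx1, on chromosome 18 from 61018862 to 61036199 on the minus strand, was at 144, 156, 147, 164 and 167 TPM in the WT replicates and at 134, 125, 131, 137 and 127 TPM in the cKO replicates. Every cKO value was lower than every WT value in TPM, a pattern of the same background share as for Hnf4a, and the groups overlapped in CPM. Its log2 fold change was -0.15 (SE 0.07, adjusted p = 0.14, edgeR). Cdx1 passed as lower with library size only (-0.28, adjusted p = 0.0076) and in limma on log2(TPM + 1) (-0.24, adjusted p = 0.012), and relative to the median of all genes it was at -0.12 with TMM, -0.12 with library size only and -0.14 in limma on log2(TPM + 1). The change was -0.07 without WT replicate 5 (adjusted p = 0.40, edgeR) and -0.10 without the 4 libraries with Gkn1 (adjusted p = 0.54, edgeR).

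Cdx2, on chromosome 5 from 147300805 to 147307270 on the minus strand, encodes the main regulator of intestinal identity. It was at 98.7, 113, 102, 104 and 97.6 TPM in WT and at 103, 88.4, 100.7, 87.5 and 79.8 TPM in cKO crypts. The values overlapped, and the log2 fold change was -0.07 (SE 0.09, adjusted p = 0.58, edgeR). The TPM ratio of Cdx2 to Cdx1 was on average 0.664 in WT and 0.700 in cKO, a difference of 0.08 on the log2 scale (two-sided exact permutation test, p = 0.41, adjusted p = 0.55 over the 4 ratios).

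Gata6, on chromosome 18 from 11052064 to 11085635 on the plus strand, was the other factor that rose. It was at 34.6, 33.6, 36.2, 35.5 and 26.9 TPM in the WT replicates and at 36.6, 39.2, 35.8, 41.9 and 39.2 TPM in the cKO replicates. WT replicate 3 lay just above cKO replicate 3 in TPM, while in CPM the groups did not overlap (WT crypts 78.6 ± 6.28 CPM, cKO crypts 97.3 ± 5.23 CPM, SD, n = 5), as was the case, higher in cKO, for 12.0% of all tested genes. WT replicate 5 held the lowest value. The log2 fold change was 0.31 (SE 0.07, adjusted p = 0.0072, edgeR), and 18.0% of all tested genes had a larger positive change. Gata6 did not pass with library size only (0.18, adjusted p = 0.076), in limma on log2(TPM + 1) (0.21, adjusted p = 0.088) or without the 4 libraries with Gkn1 (0.25, adjusted p = 0.12), and the direction was the same in each. Relative to the median of all genes Gata6 was at 0.34 with TMM, 0.34 with library size only and 0.31 in limma on log2(TPM + 1).

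Gata4, on chromosome 14 from 63198922 to 63271692 on the minus strand, was the most highly expressed GATA factor. It was at 88.9 to 110 TPM in WT (103 ± 8.90, SD, n = 5) and at 94.97 to 104 TPM in cKO crypts (100.1 ± 3.37). Its log2 fold change was 0.002 (SE 0.06, adjusted p = 0.99, edgeR) and turned negative with library size only and in limma on log2(TPM + 1), without passing. Gata5, on chromosome 2 from 180325133 to 180334699 on the minus strand, was at 20.1 to 25.2 TPM in WT and at 19.6 to 26.8 TPM in cKO crypts, with a log2 fold change of 0.07 (SE 0.07, adjusted p = 0.51, edgeR) that turned negative under the same scalings.

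The balance among the GATA factors moved towards Gata6. The TPM ratio of Gata6 to Gata4 was 0.313, 0.305, 0.345, 0.350 and 0.303 in the WT replicates and 0.352, 0.413, 0.353, 0.423 and 0.388 in the cKO replicates. The groups did not overlap, though WT replicate 4 and cKO replicate 1 were nearly equal. The difference was 0.25 on the log2 scale (two-sided exact permutation test, p = 0.00794, adjusted p = 0.016 over the 4 ratios). With all libraries this p-value was fixed by that separation and adds nothing to it. The difference missed the threshold when WT replicate 1, 2 or 5 was left out (adjusted p = 0.063 each, exact permutation test). It was 0.28 when the 4 libraries with Gkn1 were left out, again in a comparison that cannot pass (exact permutation test, adjusted p = 0.13). The ratio of Gata5 to Gata4 was on average 0.225 in WT and 0.227 in cKO (difference of 0.005 on the log2 scale, exact permutation test, p = 0.96, adjusted p = 0.96).

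Nr5a2, on chromosome 1 from 136842571 to 136960448 on the minus strand, had the lowest level of the 8 factors. It was at 18.9, 14.7, 19.8, 18.0 and 15.7 TPM in the WT replicates and at 16.6, 16.0, 16.4, 16.7 and 16.8 TPM in the cKO replicates. All cKO values lay within the range of the WT values. Its log2 fold change was 0.14 (SE 0.07, adjusted p = 0.18, edgeR), and in limma on log2(TPM + 1) it was negative, at -0.07 (adjusted p = 0.59).

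**Figure D3:**
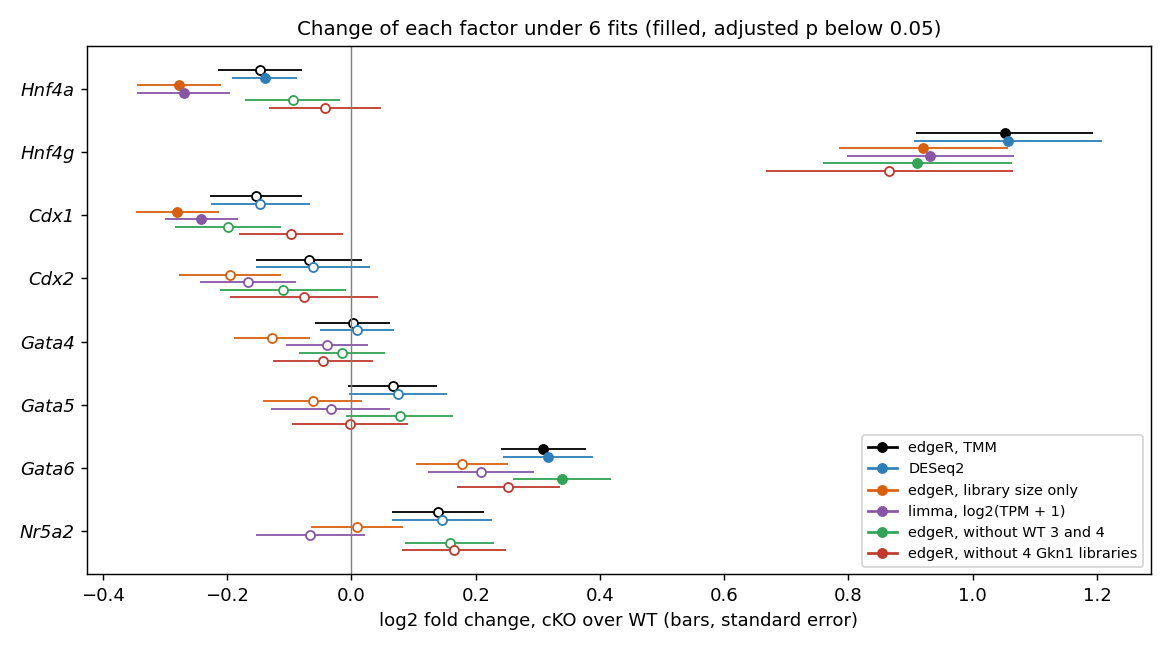
The log2 fold change of cKO over WT of each factor (points, with standard errors as bars) under 6 fits, filled where the adjusted p is below 0.05. Hnf4g lies between 0.87 and 1.06 in all 6 and is filled in all but the fit without the 4 libraries with Gkn1, whereas for Hnf4a, Cdx1 and Gata6 the call depends on the fit.

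By mean TPM the order in WT crypts was Hnf4a (374), Cdx1 (155), Gata4 (103), Cdx2 (103), Hnf4g (58.3), Gata6 (33.4), Gata5 (23.2) and Nr5a2 (17.4). Neighbours in this order had separate ranges over the 5 libraries, except for Gata4 and Cdx2. In cKO crypts Hnf4g (112 TPM) came after Hnf4a (309) and Cdx1 (131) and stood before Gata4 (100.1) and Cdx2 (91.9). The ranges of Gata4 and Cdx2 overlapped there too. The range of Hnf4g overlapped those of Cdx1, which was higher in 4 of 5 libraries, and of Gata4, which was lower in 3 of 5. It also overlapped that of Cdx2, which was lower in all cKO libraries but replicate 3 (100.7 against 95.7 TPM). The order of Gata6, Gata5 and Nr5a2 was the same in both genotypes, with separate ranges.

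The genes whose centred log2 CPM ran closest to that of Hnf4g over the 10 libraries were Ugcg, Lysmd3, Fbxo25, Samd8 and Slc35a5, with root mean square differences of 0.13 to 0.14 on the log2 scale among 9208 genes of at least 10 CPM. Each of them was called higher, with log2 fold changes of 0.93 to 0.99. Those closest to Hnf4a were Kpna6, Rprd1b, Trap1, Eps15l1 and Tpm4, with root mean square differences of 0.03 to 0.04 and log2 fold changes of -0.18 to -0.12. With edgeR, Trap1 (adjusted p = 0.046) and Tpm4 (adjusted p = 0.034) were called lower, and Kpna6, Rprd1b and Eps15l1 were not called. All 10 libraries share the genotype contrast, so this likeness is a description.

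Genes known to be driven by HNF4 in the intestine were higher in cKO crypts. Of 17 such genes, 17 were called higher, beside 15.6% of all tested genes, with a median log2 fold change of 1.55. This list and those that follow were written with earlier results of these data known, so their counts are a description. Clec2e and Slc30a10 are HNF4 targets described earlier that the study picked as examples for its own WT and cKO mice, so their direction is not independent evidence either. Clec2e, which encodes a C-type lectin, was at 7.22, 15.0, 4.05, 2.18 and 5.61 TPM in the WT replicates and at 33.5, 31.2, 24.3, 49.8 and 47.1 TPM in the cKO replicates (log2 fold change 2.51, SE 0.48, adjusted p = 0.0063, edgeR). Slc30a10, which encodes a manganese exporter, was at 2.85, 2.30, 1.34, 0.87 and 1.72 TPM in WT and at 9.93, 6.33, 12.3, 12.2 and 5.12 TPM in cKO (2.41, SE 0.36, adjusted p = 0.0021, edgeR). In both genes the groups did not overlap, and WT replicate 4 was the lowest library. Apoa4, which encodes an apolipoprotein of the chylomicron, rose by 2.06 on the log2 scale, from 443 ± 271 to 1769 ± 784 TPM (SD, n = 5). Vil1, whose promoter drives the Cre recombinase of the model, is also on this list and rose by 0.80 (SE 0.13, adjusted p = 0.0018, edgeR). Without the 4 libraries with Gkn1, all 17 were still on the higher side with a median of 0.87. Of these, 4 passed the threshold and 15 had an unadjusted p below 0.05. In that comparison 2.78% of all genes were called in either direction and 22.1% had such a p. With no filter on low counts 11 of the 17 passed, in a fit that called 1950 genes higher in place of 2298.

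Of 12 genes known to be driven by CDX factors, 9 were called higher and 0 lower, beside 15.6 and 12.7% of all tested genes, with a median log2 fold change of 1.13. DESeq2 also called 0 of them lower, and 0 were lower at an unadjusted p below 0.05. The largest changes were those of Slc15a1, a peptide transporter (2.03), Lct, lactase (1.92), and Sis, sucrase-isomaltase (1.80). Isx (0.02), Vdr (0.32) and Muc2 (0.29), named after their values were seen, did not pass. Of the jejunal genes that depend on GATA4, Lct, Sis and Fabp1 (1.55), a fatty acid binding protein, were called higher. The ileal genes that GATA4 keeps low, Slc10a2 and Fabp6, were at or below 0.886 TPM on average in both genotypes and did not pass. These lists overlap, since Lct and Sis stand in both the CDX and the GATA list, Fabp1 in both the HNF4 and the GATA list, and Cdhr5, called higher, in both the HNF4 and the CDX list. When the 4 libraries with Gkn1 were left out, 3 of the 12 CDX genes and 1 of the 5 GATA genes passed, all higher. In that comparison 2.78% of all genes were called in either direction. The count of 3 GATA genes also fell to 1 with no filter on low counts and when WT replicate 3, WT replicate 5, cKO replicate 4 or cKO replicate 5 was left out.

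Of 6 tested genes known to be driven by NR5A2, 3 rose and 2 fell, beside 15.6% of all tested genes called higher and 12.7% lower. Abcg8 (1.44) and Abcg5 (1.13), which together export sterols, and Nr0b2 (0.70), the corepressor SHP, were higher. Nr0b2 passed narrowly (adjusted p = 0.049, edgeR), with means of 1.69 TPM in WT and 2.61 TPM in cKO crypts and overlapping groups. The cyclin genes Ccne1 (-0.76) and Ccnd1 (-0.47), the latter named after its values were seen, were lower. The count of 5 called genes was 4 or 5 when 1 animal was left out, and with library size only 2 were higher and 2 lower. With the 4 libraries with Gkn1 left out, edgeR called 0 of the 6, and 3 were higher and 2 lower at an unadjusted p below 0.05. In that comparison 22.1% of all genes had such a p.

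Among 11 tested partners and competitors of these factors, 3 rose and 1 fell, beside 28.3% of all tested genes called. The count of 4 fell to 2 when WT replicate 3, WT replicate 4 or cKO replicate 1 was left out. It also fell to 2 without cKO replicate 2 or cKO replicate 5. It was 1 without the 4 libraries with Gkn1, where 2.78% of all genes were called. With library size only, 2 were higher and 4 lower. Ppargc1a, a coactivator of nuclear receptors, rose from 5.07 ± 1.32 to 10.6 ± 1.66 TPM (log2 fold change 1.26, SE 0.17, adjusted p = 0.0010, edgeR). Rxra, the common partner of many nuclear receptors though not of HNF4, rose by 0.43 and Nr0b2, also on the NR5A2 list, by 0.70. Zfpm1, which encodes the GATA cofactor FOG1, fell by 0.30 on the log2 scale (adjusted p = 0.034, edgeR), and it was named after its values were seen. The relatives Cdx4 and Nr5a1, which mark other tissues, were listed at 0 in every library. Of the genes that mark regions of the gut, edgeR called 0 of the 6 tested, 0 had an unadjusted p below 0.05 and DESeq2 called 0.

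**Figure D4:**
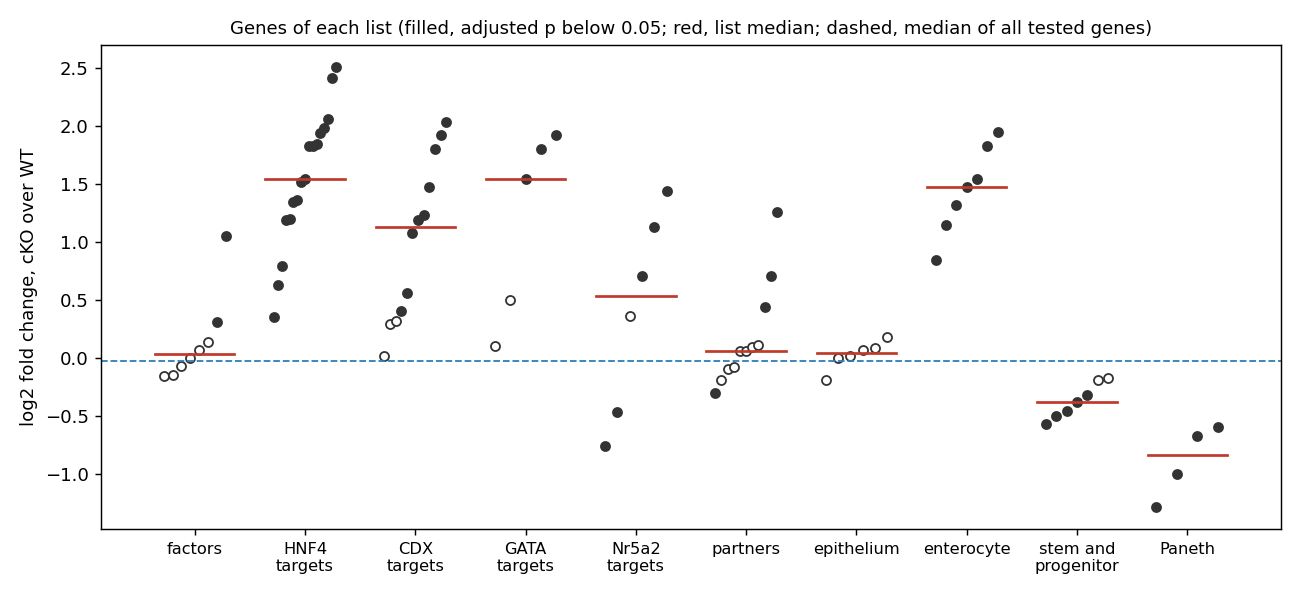
Each point is the log2 fold change of cKO over WT of 1 gene, by list, filled where the adjusted p is below 0.05, with the list median in red and the median of all tested genes dashed. Of the factors Hnf4g (1.05) and Gata6 (0.31) are filled and the other 6 lie between -0.15 and 0.14, while all 17 HNF4 targets and all 7 enterocyte markers lie above 0 and all 4 Paneth cell markers below it.

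The same crypts differed in the markers of their cell types, where 15.6% of all tested genes were called higher and 12.7% lower. All 7 enterocyte markers were called higher (median log2 fold change 1.47), among them Alpi (1.83) and Slc5a1 (1.54), with the summed levels given beside Hnf4g. Of these markers, Alpi is also on the HNF4 list and Krt20 on the CDX list. Of 7 stem and progenitor cell markers 5 fell, among them Ascl2 (-0.57), Olfm4 (-0.50) and Axin2 (-0.46), and all 4 Paneth cell markers fell, among them Mptx2 (-1.29), Mmp7 (-1.01) and Itln1 (-0.68). The sums were 2676 to 4684 TPM in WT and 1957 to 3029 TPM in cKO for the stem and progenitor list, and 8491 to 15923 and 5584 to 7955 TPM for the Paneth list. In bulk RNA, more cells of a type and more RNA per cell cannot be told apart, and the part of the cell type makeup in the changes of Hnf4g, Gata6 and the target lists was not tested. Without the 4 libraries with Gkn1, 1 of the 7 enterocyte markers passed, beside 2.78% of all genes called in that comparison. All 7 were on the higher side, with a median of 0.85. Of the stem and progenitor markers and of the Paneth cell markers edgeR then called 0, while 4 of 7 and 3 of 4 were lower at an unadjusted p below 0.05. Such a p was held by 22.1% of all genes in that comparison.

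Of the remaining markers, edgeR called 0 of 6 goblet cell genes, where 1 was higher and 1 lower at an unadjusted p below 0.05 and DESeq2 called 1. It called 2 of 4 enteroendocrine genes higher, Chgb (0.43) and Chga (0.42), and 2 of 4 tuft cell genes higher, Trpm5 (0.25) and Dclk1 (0.20), beside 15.6% of all tested genes. With library size only, in limma on log2(TPM + 1) and without the 4 libraries with Gkn1, 0 enteroendocrine and 0 tuft cell genes passed, with 1, 1 and 2 enteroendocrine and 0 tuft cell genes higher at an unadjusted p below 0.05. Of 11 immune genes Jchain, which joins secreted antibodies, fell (-1.95), and of 8 stromal genes Acta2 (-1.59) and Pecam1 (-1.19) fell, beside 12.7% of all tested genes. Without the 4 libraries with Gkn1 edgeR called 0 genes of either list, and 93 of 15229 genes as lower. At an unadjusted p below 0.05, 2 immune and 6 stromal genes were lower there, beside 1417 of the 15229. The median log2 fold change was then -0.89 for the immune list and -1.32 for the stromal list, against -0.33 and -0.39 with all libraries. DESeq2 on all libraries called 2 immune and 2 stromal genes lower, beside 15.4% of all genes. The summed levels were 88.5 to 169 TPM in WT and 39.3 to 159 TPM in cKO for the immune list, and 16.4 to 38.6 and 9.82 to 58.6 TPM for the stromal list.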

How the data were processed

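Expected counts, TPM and FPKM, with gene length and effective length, were deposited by the authors for each library. Per the study's methods, reads went through nf-core/rnaseq version 3.0 with STAR and RSEM against Ensembl release 95 of GRCm38; the authors' expected counts are not normalized between libraries, and their TPM and FPKM divide by effective length. RSEM divides reads shared between genes.

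Expected counts were rounded and tested with edgeR 4.0.16 in R 4.3.3 (filterByExpr with minimum count 10 and minimum total 15, TMM, robust quasi-likelihood test). Weighted lengths were tested with limma 3.58.1, and 4 TPM ratios with exact permutation tests over all assignments of libraries to genotypes. Standard deviations are over 5 libraries. Genes without a symbol held 0.02% of counts. Scripts were tested on simulated data.

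The factors and lists were chosen with earlier results of these data known. Named genes were Arid3a, the 8 factors, Clec2e and Slc30a10, from each list the 3 called genes with the largest change (1 of these is not reported here), any gene needed to check a label, and the 5 nearest patterns. Alternatives were DESeq2 1.42.0, RLE, library size only, other filters, unrounded counts, length offset, limma-voom, limma on log2(TPM + 1), replicate block, and leaving out libraries. Each factor held at least 1385 counts per library. How much of its spread came from counting and how much from the difference between animals was not tested.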

Additional observations from a re-analysis of the deposited data

Results flagged for a closer look

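Among 52 groups of 5 values examined for the factors, their ratios, their weighted lengths and a few named genes, 2 held a library far from the others, where chance alone flags about 1 in 20. Hnf4g in cKO replicate 5 was at 8.11 log2 CPM, with the other 4 cKO libraries between 7.48 and 7.66, and leaving that library out gave the smallest change of Hnf4g among the fits that left out 1 animal, 0.92. The summed TPM of Gata4, Gata5 and Gata6 in WT replicate 5 was 135.9, with the other 4 WT libraries between 162 and 169.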

How the results depend on the processing

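The values gave no sign that the replicate numbers pair the animals, though weak correlations cannot settle it. The deviations of same-numbered WT and cKO libraries correlated between -0.157 and 0.131. Of the 5 WT libraries, 0 correlated best with the cKO library of its own number. With the replicate number as a block, edgeR called 3048 genes, the same 2 factors and 2 in place of 4 partner genes, Hnf4aos missed the threshold (1.63, adjusted p = 0.099), and the count of genes with a changed weighted length was 6 in place of 29. Permutation within replicate number left the ratio differences at 1.21 for Hnf4g to Hnf4a and 0.25 for Gata6 to Gata4, but has 32 assignments and cannot go below p = 0.0625.

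With library size only the log2 fold changes were -0.28 for Hnf4a and -0.28 for Cdx1, now past the threshold, 0.18 for Gata6, no longer past it, and -0.13 for Gata4 and -0.062 for Gata5, reversed. In limma on log2(TPM + 1) they were -0.27 for Hnf4a and -0.24 for Cdx1, now past the threshold, 0.21 for Gata6, no longer past it, and -0.039 for Gata4, -0.033 for Gata5 and -0.066 for Nr5a2, reversed. In DESeq2 Hnf4a passed at -0.14. The shift of the median of all genes under these scalings is given with the results, and for DESeq2 the cause was not tested.

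Without WT replicates 3 and 4, 2142 genes were called, Gata4 reversed to -0.015, and the ratio differences of 1.01 for Hnf4g to Hnf4a and 0.33 for Gata6 to Gata4 did not pass with fewer samples. Without WT replicates 3, 4 and 5 and cKO replicate 4, chosen after seeing the data, edgeR called 423 genes, 0 factors (2 at an unadjusted p below 0.05) and 8 target and partner genes. Hnf4g was then at 0.87 and Gata6 at 0.25, neither past the threshold, Gata4 at -0.046 and Gata5 at -0.0023, and the ratio differences were 0.91 and 0.28.

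Leaving out each animal in turn gave 3007 to 4684 changed genes (lowest without WT replicate 4), 2 changed factors and 23 to 32 changed target and partner genes. Log2 fold changes ranged from 0.92 to 1.15 for Hnf4g, 0.28 to 0.34 for Gata6, -0.022 to 0.031 for Gata4 and 0.03 to 0.10 for Gata5. The ratio differences ranged from 1.09 to 1.33 for Hnf4g to Hnf4a, 0.22 to 0.29 for Gata6 to Gata4 and -0.061 to 0.043 for Gata5 to Gata4. The count of changed weighted lengths ranged from 0 without cKO replicate 3 to 69 without WT replicate 2, and the length change of Gata6 from -0.0048 to 0.0045. In all, 267 alternative values of the main results kept their direction and side of the threshold or, for counts, stayed within 1.5 times the main count, and 15 moved, 15 reversed, 13 lost and 5 gained the threshold. For single genes and lists, 261 stayed, 26 moved, 4 reversed and 14 lost it.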
